A study of Rattus norvegicus with 12 samples.

Results

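The genes described are the collagen chain genes of the rat lung, taken as every gene symbol made of Col, digits, a and digits in the 3 tables of AngII, TRV023 or losartan against vehicle. The rule found 42 of the 19687 genes in these tables. They comprised 11 fibrillar, 6 basement membrane, 3 network, 8 FACIT (fibril-associated collagens with interrupted triple helices), 6 beaded filament, 2 multiplexin and 4 transmembrane collagens, the anchoring fibril gene Col7a1, and Col28a1. Genes without a read in the drug group are left out of the table of that drug, so Col10a1 and Col19a1 have no entry in the AngII table and Col2a1 has none in the TRV023 and losartan tables. That left 39 collagen genes with a value in all 12 libraries, of 16957 such genes in all.

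RNA was sequenced from lung tissue of 12 rats, 9 weeks old by the labels, with 3 rats in each of 4 groups. All rats, including those given vehicle, had received monocrotaline (MCT), a plant alkaloid that injures the pulmonary vessels and is used to model pulmonary arterial hypertension. By the methods these were male Sprague-Dawley rats given 60 mg/kg of MCT, so no group is a healthy lung. The drug-treated rats received AngII (angiotensin II, the natural agonist of the AT1 receptor) at 1 mg/kg/day, TRV023 (a β-arrestin-biased agonist of that receptor) at 10 µg/kg/min, or losartan (an AT1 receptor blocker) at 10 mg/kg/day, and the vehicle rats received PBS. Drugs were delivered by minipump. For histology and hemodynamics the methods give a 2-week infusion begun 1 week after MCT, and no time is stated for the sequenced lungs. Each library carries its own animal number, and values per group are given below in the order of these numbers: Ang2_922, Ang2_931 and Ang2_933 for AngII, Trv_917, Trv_918 and Trv_930 for TRV023, Los_925, Los_964 and Los_965 for losartan, and Veh_923, Veh_924 and Veh_963 for vehicle.

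Collagens are trimers of α chains wound into a triple helix, and the chains of a molecule come from a single gene or from several genes. Fibrillar chains of types I, III and V form the load-bearing fibers around vessels, airways and in the alveolar wall, FACIT collagens sit on the surface of those fibrils, and type VI forms beaded filaments next to cells. Type IV chains form the sheet-like network of basement membranes, under the alveolar epithelium and around capillaries and smooth muscle, and scarring and vessel wall thickening are commonly followed by the levels of types I and III.

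Libraries held 16106337 to 20096877 counted reads. The alveolar type 2 markers fixed for the check of the tissue summed to 11250 to 31670 CPM (read counts scaled to a fixed library size) and all 8 were listed, as were the 8 alveolar type 1 markers. Veh_963 stood apart, with 5877 CPM summed over the 11 listed of 12 smooth muscle and pericyte markers against at most 2872 CPM in any other library, and 2654 CPM over the 11 listed of 12 fibroblast markers against at most 1733 CPM. Reads of mitochondrial genes took 9.62 to 12.3% of counts in AngII libraries, 4.36 to 7.07% in TRV023 libraries, 5.11 to 10.02% in losartan libraries and 5.65 to 7.55% in vehicle libraries. This matters for FPKM (read counts scaled by the length of the gene and the counted reads of the library), because a larger share for one group of genes lowers the FPKM of all others. Fold changes were therefore taken from counts scaled by the trimmed mean of M values (TMM), and FPKM was used to compare levels between genes of different lengths.

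Collagen mRNA in these lungs was dominated by a few chains. Averaged over the 12 libraries, 9 collagen genes were at 100 FPKM or more, 8 lay between 10 and 100 FPKM, 17 between 1 and 10 FPKM, and 8 were under 1 FPKM. Col3a1, whose chain makes the type III fibrils of distensible tissue, was the highest at 897 FPKM, and 94 genes of the whole table had a higher mean. Col3a1, Col4a1, Col1a1 and Col6a1 together held 65.7% of all collagen FPKM (61.9 to 68.5% over libraries). By class, fibrillar chains held 46.9% of collagen FPKM, basement membrane chains 26.7%, beaded filament chains 19.2% (16.7 to 21.7% over libraries), FACIT 3.73%, multiplexins 2.13%, transmembrane collagens 0.946%, Col7a1 0.234% and network collagens 0.195%. At the other end Col2a1, the main fibrillar chain of cartilage, averaged 0.0193 FPKM in the 6 libraries of AngII and vehicle, and Col10a1, the chain of hypertrophic cartilage, averaged 0.0335 FPKM in the 9 libraries that list it. Levels between genes carry a limit, because the deposited FPKM of 9 members, among them Col6a1, Col12a1, Col4a4, Col4a6 and Col11a1, was made with a shorter gene length than the table lists, and the Col4a5 model is only 1758 bases long.

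**Figure D1:**
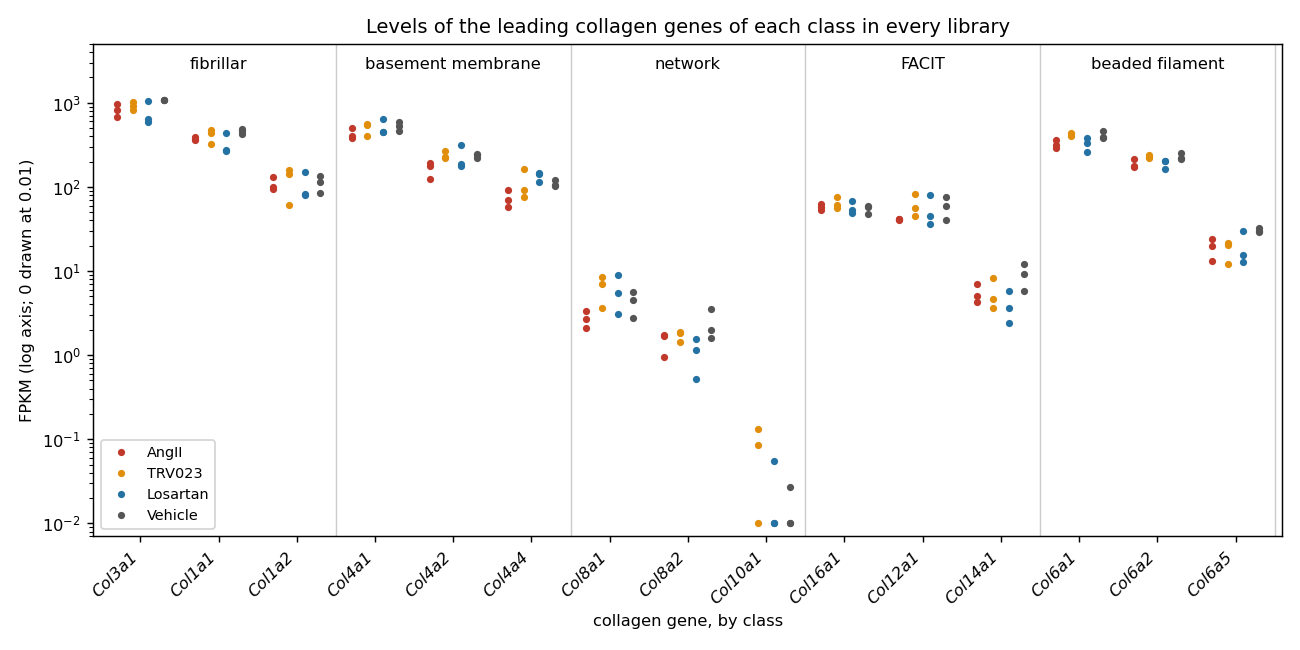
FPKM (log axis) of the 3 members of each of 5 classes with the highest mean, 1 point per library, with groups from left to right AngII, TRV023, losartan and vehicle. Col3a1 lay between 591 and 1092 FPKM and Col10a1 at or under 0.134 FPKM, with a listed 0 drawn at 0.01 and no AngII points for Col10a1, which the AngII table does not list.

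Among the fibrillar chains, Col3a1 had 973, 680.1 and 827 FPKM in AngII lungs, 914, 817 and 1018 FPKM in TRV023 lungs, 1055, 638 and 591 FPKM in losartan lungs, and 1091, 1092 and 1066 FPKM in vehicle lungs. All 9 drug libraries lay below all 3 vehicle libraries, which differed little among themselves (1083 ± 14.7 FPKM, SD, n = 3). The log2 fold change of Col3a1 against vehicle was -0.26 with AngII (edgeR adjusted p = 0.521), -0.24 with TRV023 (adjusted p = 0.991) and -0.48 with losartan (adjusted p = 0.9999), so none passed the test. These 3 comparisons share the same vehicle libraries. In bulk tissue, fewer cells of a type and less RNA per cell cannot be told apart.

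Col1a1, the major chain of type I collagen, had 393, 372 and 359 FPKM in AngII lungs, 469, 327 and 433 FPKM in TRV023 lungs, 431, 275 and 268 FPKM in losartan lungs, and 428, 492 and 457 FPKM in vehicle lungs. Los_964 and Los_965 had the lowest values of all libraries, Los_925 lay within the vehicle range, and the AngII group was entirely below vehicle. Its partner Col1a2 had 133, 101 and 93.6 FPKM in AngII lungs, 143, 60.9 and 160.4 FPKM in TRV023 lungs, 151, 80.5 and 82.6 FPKM in losartan lungs, and 116, 83.8 and 136 FPKM in vehicle lungs, and every drug group overlapped vehicle. Type V chains, which start and size type I fibrils, were at 70.6 to 128 FPKM for Col5a2 and 19.1 to 43.2 FPKM for Col5a1. The remaining fibrillar members, Col5a3, Col27a1, Col11a2, Col11a1, Col24a1 and Col2a1, had means under 10 FPKM.

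The 6 type IV genes sit in pairs, head to head on opposite strands, in the coordinates of the deposited tables, whose genome build is not given in the sources used here. Col4a2 (chr16:82853206-82987193, minus strand) and Col4a1 (chr16:82987857-83097435, plus strand) are separated by 663 bases, and Col4a4 (chr9:87981034-88104119, minus strand) and Col4a3 (chr9:88104688-88232032, plus strand) by 568 bases. Col4a6 (chrX:110869703-111224978, minus strand) ends far from the partial Col4a5 model (chrX:111376683-111436082, plus strand). In the RefSeq annotation of rat build GRCr8 the start sites are 77 bases apart for Col4a1 and Col4a2, 413 bases for Col4a3 and Col4a4 and 1415 bases for Col4a5 and Col4a6. Promoter windows of 250 bases before and 50 after the start are printed for the first 2 pairs because the chains of a pair are compared below. The 2 windows of the Col4a1 and Col4a2 pair share 176 bases, so only that of Col4a1 is shown, and those of Col4a3 and Col4a4 share 88 bases. Capitals mark a CCAAT box (CCAAT, or ATTGG on the other strand), a GC box (GGGCGG or CCGCCC) and a TATA box (TATAAA or TTTATA).
Col4a1, GRCr8 chr16:84885347-84885646, plus strand: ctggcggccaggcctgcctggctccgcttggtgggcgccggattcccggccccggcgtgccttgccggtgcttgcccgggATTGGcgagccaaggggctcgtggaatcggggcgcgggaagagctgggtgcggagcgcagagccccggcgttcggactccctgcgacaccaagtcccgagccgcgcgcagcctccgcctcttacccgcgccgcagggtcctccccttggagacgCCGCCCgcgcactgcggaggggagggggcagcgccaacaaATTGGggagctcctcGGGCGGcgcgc
Col4a3, GRCr8 chr9:91323740-91324039, plus strand: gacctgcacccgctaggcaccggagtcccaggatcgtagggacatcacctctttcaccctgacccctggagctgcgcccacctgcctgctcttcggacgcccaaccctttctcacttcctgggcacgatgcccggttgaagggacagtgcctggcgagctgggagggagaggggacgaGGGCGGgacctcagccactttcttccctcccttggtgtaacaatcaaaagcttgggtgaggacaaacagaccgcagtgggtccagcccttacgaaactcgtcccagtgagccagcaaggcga
Col4a4, GRCr8 chr9:91323528-91323827, minus strand: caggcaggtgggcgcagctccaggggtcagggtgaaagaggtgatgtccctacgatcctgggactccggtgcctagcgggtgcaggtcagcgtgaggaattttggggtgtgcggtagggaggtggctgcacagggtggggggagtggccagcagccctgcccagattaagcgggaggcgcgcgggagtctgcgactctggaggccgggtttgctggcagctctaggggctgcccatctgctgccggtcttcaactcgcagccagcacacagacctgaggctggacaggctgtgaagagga
The Col4a1 window held 2 CCAAT boxes and 2 GC boxes, that of Col4a3 held 1 GC box and that of Col4a4 held none of the 3 motifs, with no motif overlapping another. In all, 36 windows belonged to 33 of the 42 collagen genes. Of these, 12 held a CCAAT box (33.3%, against 37.5% of all 33469 promoters), 20 a GC box (55.6%, against 33.1%) and 4 a TATA box (11.1%, against 14.2%). These are matches of letters on either strand and not measured binding sites.

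Col4a1 and Col4a2, whose chains make the type IV network found in nearly all basement membranes, were the highest of the class. Col4a1 had 384, 402 and 498 FPKM in AngII lungs, 555, 399 and 540.1 FPKM in TRV023 lungs, 637, 452 and 444 FPKM in losartan lungs, and 536, 596 and 456 FPKM in vehicle lungs. All drug groups overlapped vehicle for Col4a1. Col4a2 had 177, 124 and 190.2 FPKM in AngII lungs, 269.7, 228 and 220.4 FPKM in TRV023 lungs, 312, 189.7 and 177 FPKM in losartan lungs, and 244, 239 and 223 FPKM in vehicle lungs. For Col4a2 every AngII library lay below every vehicle library, and Los_964 and Los_965 did too.

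Col4a3 and Col4a4 encode chains of the basement membranes of the alveolus and of the kidney filter, and for both genes all AngII libraries lay below all losartan libraries. Col4a4 had 92.4, 57.0 and 69.4 FPKM in AngII lungs, 91.4, 163 and 75.6 FPKM in TRV023 lungs, 146, 113 and 141 FPKM in losartan lungs, and 102, 122 and 105 FPKM in vehicle lungs. Col4a3 had 4.55, 1.28 and 3.04 FPKM in AngII lungs, 5.03, 10.4 and 2.93 FPKM in TRV023 lungs, 10.1, 5.16 and 7.27 FPKM in losartan lungs, and 6.19, 5.36 and 4.61 FPKM in vehicle lungs. Both genes were lowest in Ang2_931 and highest in Trv_918. Their FPKM ratio, a median of 0.0474 for Col4a3 over Col4a4, became 0.153 when the listed length of Col4a4 was used, so the gap between these chains depends on the gene model.

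Col4a5 and Col4a6 encode chains that occur together in a type IV network around smooth muscle, among other sites, without being confined to it. Col4a5 had 46.9, 24.6 and 23.6 FPKM in AngII lungs, 37.8, 62.2 and 32.5 FPKM in TRV023 lungs, 56.3, 37.8 and 49.0 FPKM in losartan lungs, and 41.9, 44.0 and 112 FPKM in vehicle lungs. Col4a6 had 2.23, 0.859 and 1.04 FPKM in AngII lungs, 0.920, 2.06 and 1.15 FPKM in TRV023 lungs, 3.33, 0.589 and 2.28 FPKM in losartan lungs, and 1.82, 3.14 and 4.70 FPKM in vehicle lungs. Veh_963, the library with the highest sums of smooth muscle and pericyte, fibroblast and chondrocyte markers, was the highest for both genes. Col18a1, a multiplexin of vascular basement membranes, was also highest in Veh_963 at 128 FPKM against 41.8 to 73.3 FPKM in all other libraries.

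Among the beaded filament chains, Col6a1 had 361, 315 and 293 FPKM in AngII lungs, 433, 400.2 and 425 FPKM in TRV023 lungs, 377, 334 and 263 FPKM in losartan lungs, and 387, 378 and 462 FPKM in vehicle lungs. Col6a2 had 216, 179 and 175 FPKM in AngII lungs, 237, 219.9 and 224 FPKM in TRV023 lungs, 204, 203 and 163 FPKM in losartan lungs, and 214, 221 and 253 FPKM in vehicle lungs. Losartan lungs lay below vehicle for both genes, AngII lungs for Col6a1. The third chain of the classical type VI trimer, Col6a3, was far lower and more uneven, with 14.9, 6.24 and 8.07 FPKM in AngII lungs, 13.8, 18.5 and 13.2 FPKM in TRV023 lungs, 25.3, 5.98 and 7.86 FPKM in losartan lungs, and 18.7, 15.2 and 22.1 FPKM in vehicle lungs. Col6a5, a chain that can take the place of Col6a3, had 23.9, 13.3 and 19.7 FPKM in AngII lungs, 12.2, 21.5 and 20.6 FPKM in TRV023 lungs, 29.9, 12.8 and 15.6 FPKM in losartan lungs, and 29.7, 29.1 and 32.5 FPKM in vehicle lungs. For Col6a5 only Los_925 reached the vehicle range, and the other 8 drug libraries lay below it.

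The FACIT class was led by Col16a1 and Col12a1. Col16a1 had 62.0, 53.3 and 57.0 FPKM in AngII lungs, 75.3, 56.8 and 60.6 FPKM in TRV023 lungs, 68.1, 53.7 and 48.6 FPKM in losartan lungs, and 59.1, 57.9 and 48.0 FPKM in vehicle lungs. Col12a1, which coats type I fibrils in tissue under load, had 40.4, 42.0 and 41.5 FPKM in AngII lungs, 82.9, 45.3 and 56.9 FPKM in TRV023 lungs, 79.4, 45.5 and 35.8 FPKM in losartan lungs, and 58.8, 75.7 and 40.0 FPKM in vehicle lungs. Both genes overlapped vehicle in every drug group. Col14a1, which also binds type I fibrils, had 5.03, 4.23 and 7.06 FPKM in AngII lungs, 8.28, 3.66 and 4.69 FPKM in TRV023 lungs, 5.86, 3.602 and 2.39 FPKM in losartan lungs, and 5.74, 9.13 and 12.02 FPKM in vehicle lungs.

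Network collagens were low. Col8a1, a short chain of vessel walls, had 2.11, 2.68 and 3.34 FPKM in AngII lungs, 8.48, 3.68 and 6.94 FPKM in TRV023 lungs, 9.06, 5.48 and 3.08 FPKM in losartan lungs, and 2.78, 4.50 and 5.69 FPKM in vehicle lungs. Its relative Col8a2 had 1.69, 0.952 and 1.72 FPKM in AngII lungs, 1.88, 1.83 and 1.43 FPKM in TRV023 lungs, 1.55, 0.519 and 1.14 FPKM in losartan lungs, and 1.61, 1.98 and 3.55 FPKM in vehicle lungs. Col8a1 was lower in all AngII libraries than in all TRV023 libraries, and losartan lungs lay below vehicle for Col8a2. Col10a1 was listed at 0, 0.134 and 0.0861 FPKM in TRV023 lungs, at 0.0544, 0 and 0 FPKM in losartan lungs, and at 0, 0 and 0.0268 FPKM in vehicle lungs, too few reads to compare.

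Summed over all members, collagens took 0.457, 0.354 and 0.398% of all FPKM in AngII lungs (0.403 ± 0.0519%, SD, n = 3), 0.541, 0.464 and 0.527% in TRV023 lungs (0.510 ± 0.0411%), 0.612, 0.380 and 0.361% in losartan lungs (0.451 ± 0.140%), and 0.543, 0.563 and 0.560% in vehicle lungs (0.556 ± 0.0109%). All 3 AngII and all 3 TRV023 libraries were below all vehicle libraries, and losartan split into a rat above vehicle and 2 rats far below. For TRV023 the gap was narrow, and as a percent of read counts TRV023 overlapped vehicle (1.446 to 1.758% against 1.743 to 1.825%). The difference from vehicle in the share of FPKM was -0.152 percentage points with AngII, -0.045 with TRV023 and -0.104 with losartan. Leaving out single libraries gave -0.18 to -0.128, -0.06 to -0.022 and -0.185 to -0.059 percentage points. No test was run on a sum over chosen genes. Fibrillar chains took 0.1995% of all FPKM in AngII lungs, 0.238% in TRV023, 0.197% in losartan and 0.271% in vehicle lungs, and basement membrane chains 0.0975%, 0.133%, 0.138% and 0.142% in the same groups. The basement membrane share was 0.184% in Los_925, 0.114% in Los_964 and 0.117% in Los_965, against 0.1335 to 0.152% in vehicle lungs. In both classes all AngII libraries lay below all vehicle libraries, and losartan split into Los_925 above vehicle and Los_964 and Los_965 below it.

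**Figure D2:**
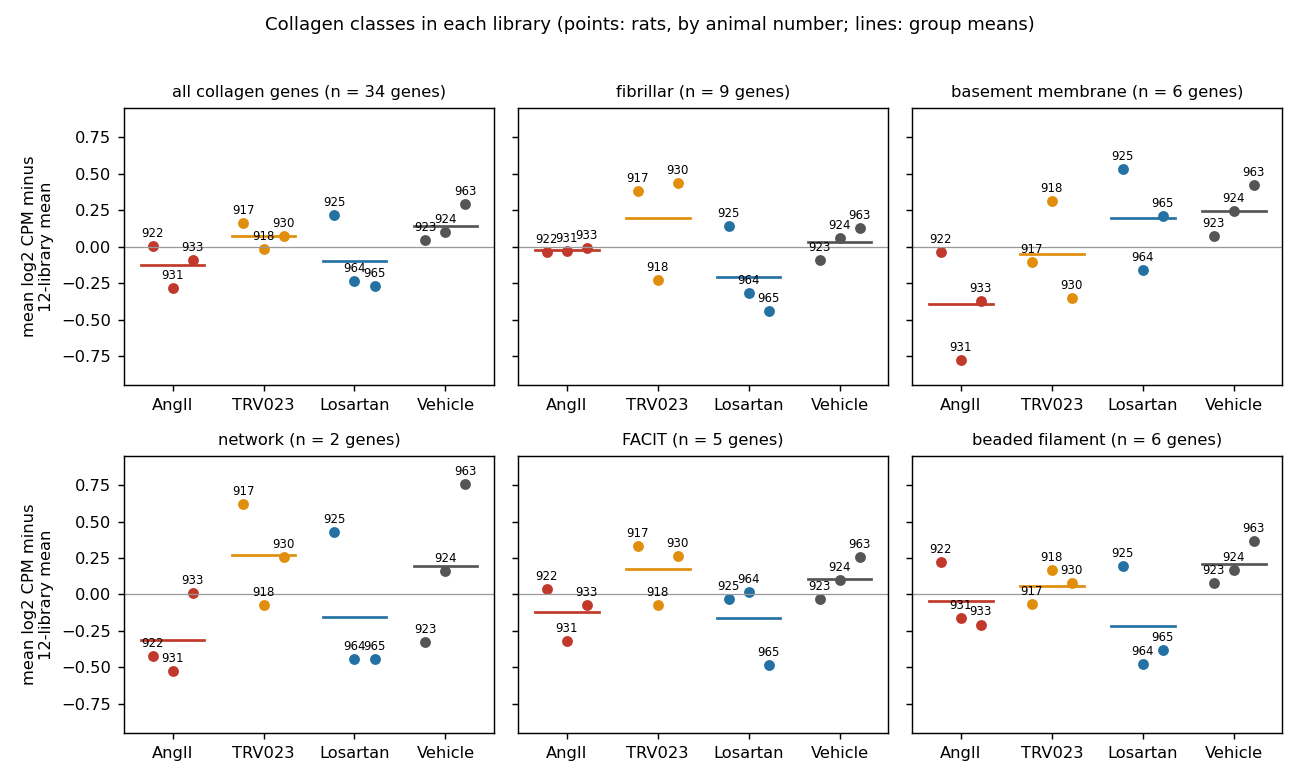
Mean over the members of a class of log2 CPM minus the mean of the 12 libraries, 1 point per rat with its animal number, and a line at each group mean. In basement membrane collagens Ang2_931 was the lowest and Los_925 the highest, and in fibrillar collagens Los_964 and Los_965 were the lowest.

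Within each of the 4 groups, the median spread between rats was larger over collagen genes than over all genes. The median SD of log2 CPM within a group over 34 members was 0.29 in AngII lungs against 0.26 over 14153 genes, 0.38 against 0.23 in TRV023 lungs, 0.47 against 0.30 in losartan lungs, and 0.28 against 0.21 in vehicle lungs. The spread was widest with losartan over collagen genes and over all genes alike, and for collagens Los_925 stood apart from Los_964 and Los_965.

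Against vehicle, AngII lungs had lower values for most collagens, with 4 type IV genes among the 8 that had an unadjusted p under 0.05, but none was called. Of the 42 members, 35 had enough reads to be tested, and 0 passed an edgeR quasi-likelihood adjusted p of 0.05, where 2 of 15059 genes did (0.0133%). DESeq2 also called no collagen gene, with 204 genes called in all (1.24%). At an unadjusted p under 0.05, 8 collagens were lower and 0 higher, where 5.39% of all tested genes were lower and 6.54% higher. In all, 27 of the 35 had a log2 fold change below 0 (77.1%, against 52.6% of all genes tested), with a median of -0.26 against -0.03 over all genes. In FPKM, 13 collagens had all AngII libraries below all vehicle libraries and 0 the reverse, but this was also so for 16.5% of all tested genes in the lower direction and 4.95% in the higher.

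**Figure D3:**
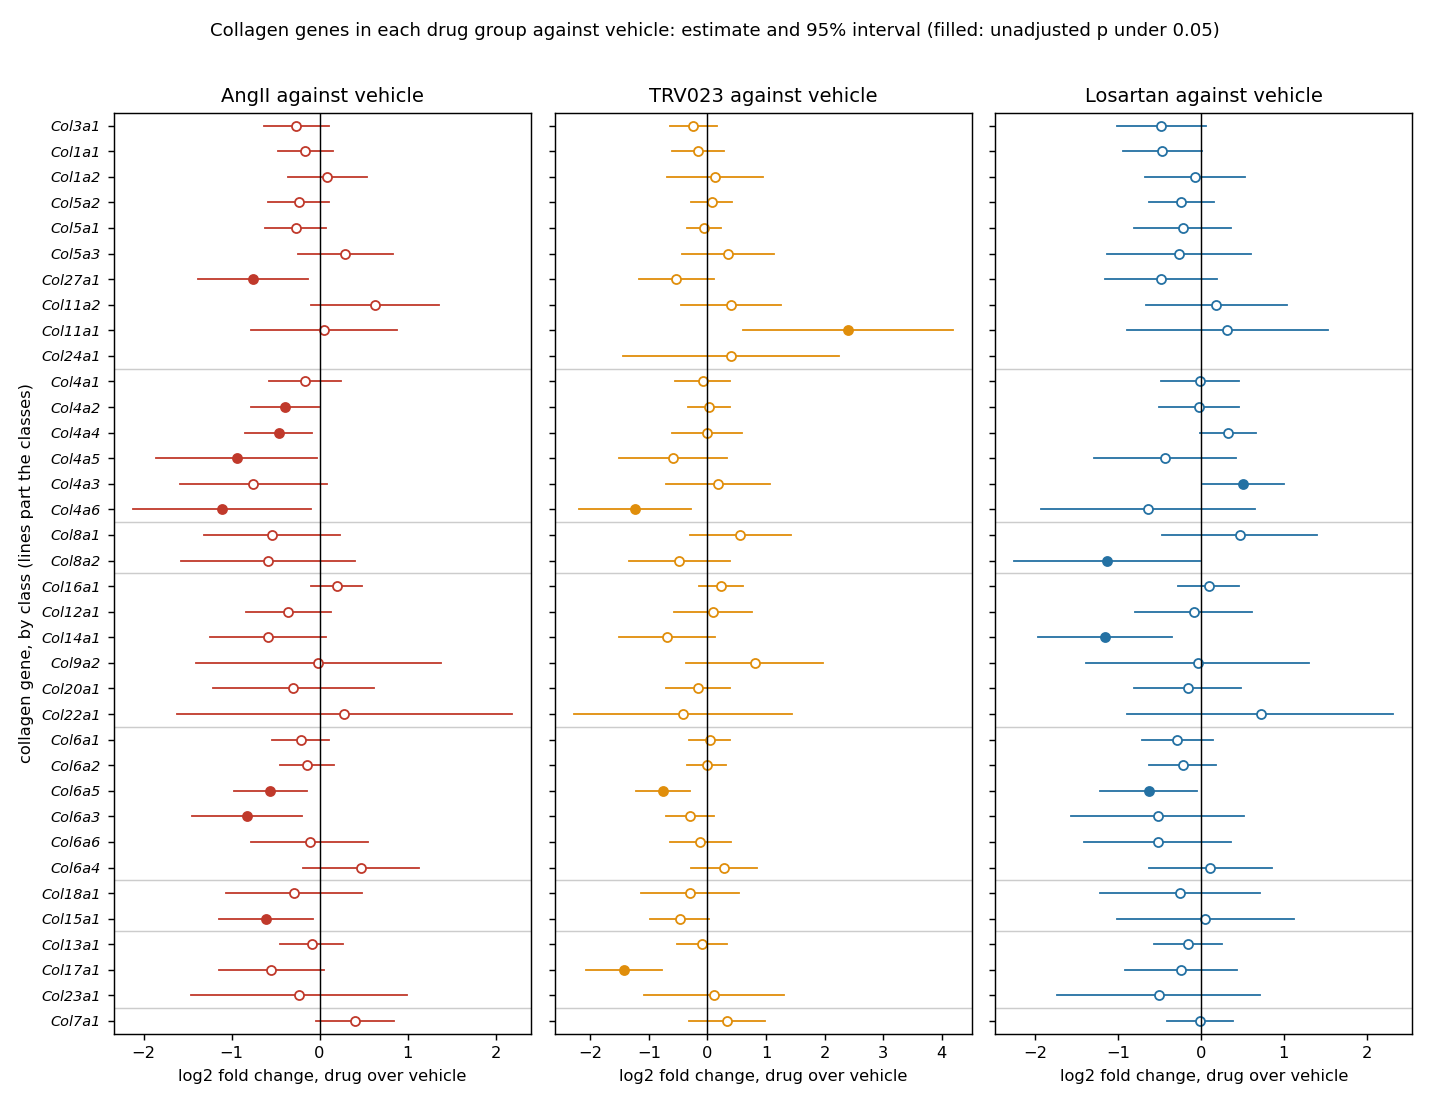
Log2 fold change, drug over vehicle, with its 95% interval for each tested collagen gene in the order fibrillar, basement membrane, network, FACIT, beaded filament, multiplexin, transmembrane and anchoring fibril, with filled points where the unadjusted edgeR p was under 0.05. Filled points number 8 for AngII, all below 0, 4 for TRV023 and 4 for losartan.

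All 6 type IV genes had fold changes below 0 with AngII, with a median log2 fold change of -0.61. Col4a4 had a log2 fold change of -0.46 (SE 0.17, edgeR adjusted p = 0.376), Col4a2 of -0.40 (SE 0.17, adjusted p = 0.416), Col4a5 of -0.94 (SE 0.40, adjusted p = 0.416) and Col4a6 of -1.11 (SE 0.44, adjusted p = 0.396). Col4a2 and Col4a4 did not overlap vehicle, whereas Col4a5 and Col4a6 did, since Ang2_922 reached the vehicle range. Veh_963 had the highest smooth muscle and pericyte, fibroblast and chondrocyte markers. Without Veh_963 the log2 fold change was -0.32 for Col4a5 and -0.73 for Col4a6, while Col4a2 stayed at -0.43 and Col4a4 at -0.49. The 11 listed smooth muscle and pericyte markers, none at 0, summed to 1586 to 2394 CPM in AngII lungs and 1792 to 5877 CPM in vehicle lungs. Of these 11 markers, 10 had a log2 fold change below 0 with AngII, at a median of -0.66, and 1 was lower at an unadjusted p under 0.05. The part of these markers in the type IV values was not tested. Ciliated cell markers also differed, with 7 of 7 tested markers below 0 in AngII against vehicle lungs at a median log2 fold change of -1.27 and 5 of them at an unadjusted p under 0.05. The 8 listed ciliated markers summed to 67.5, 34.0 and 37.9 CPM in AngII lungs, with 1 at 0 in Ang2_931 and in Ang2_933, against 96.4, 73.4 and 162.5 CPM in vehicle lungs, with none at 0. The groups did not overlap in this sum, and its part in the collagen values was not tested.

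Outside type IV, Col6a3 had a log2 fold change of -0.83 with AngII (SE 0.28, adjusted p = 0.372) and Col6a5 of -0.56 (SE 0.18, adjusted p = 0.372), and all AngII values of both lay below vehicle. Col15a1, a multiplexin near basement membranes, had 3.55, 2.01 and 3.48 FPKM in AngII lungs, against 5.87, 4.64 and 4.51 FPKM in vehicle lungs, a log2 fold change of -0.61 (SE 0.24). Col27a1, a fibrillar chain best known from cartilage, had 1.40, 1.06 and 1.18 FPKM in AngII lungs, against 1.98, 1.76 and 2.96 FPKM in vehicle lungs, a log2 fold change of -0.75 (SE 0.27). Neither gene overlapped vehicle, and the adjusted p was 0.391 for Col15a1 and 0.377 for Col27a1. The most abundant type I chains differed less, with log2 fold changes of -0.16 for Col1a1 (SE 0.14) and 0.09 for Col1a2 (SE 0.20). The median of the 9 tested fibrillar genes was -0.16, with 5 of 9 below 0, and was 0.05 with no filter on low counts and 0.006 once the gene length trend was removed. FACIT collagens had a median of -0.16, beaded filament chains of -0.18, and both network genes were below 0 at -0.54 for Col8a1 and -0.59 for Col8a2.

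The count of 8 depended on the processing. It was 1 without Ang2_931 (where 3.03% of all tested genes were lower) and 2 with all 12 libraries in 1 fit (5.13% of all genes). With library totals in place of TMM it was 15, where the median of all genes was itself at -0.157 and 10.8% of all genes were lower and 2.8% higher. With the gene length trend removed it was 4, beside 3 higher (4.52% and 6.06% of all genes), the tested collagens being long (median 5073 bases, against 2006 bases over all tested genes). The mitochondrial share was higher in all AngII than in all vehicle libraries, and its part in these counts and fold changes was not tested.

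**Figure D4:**
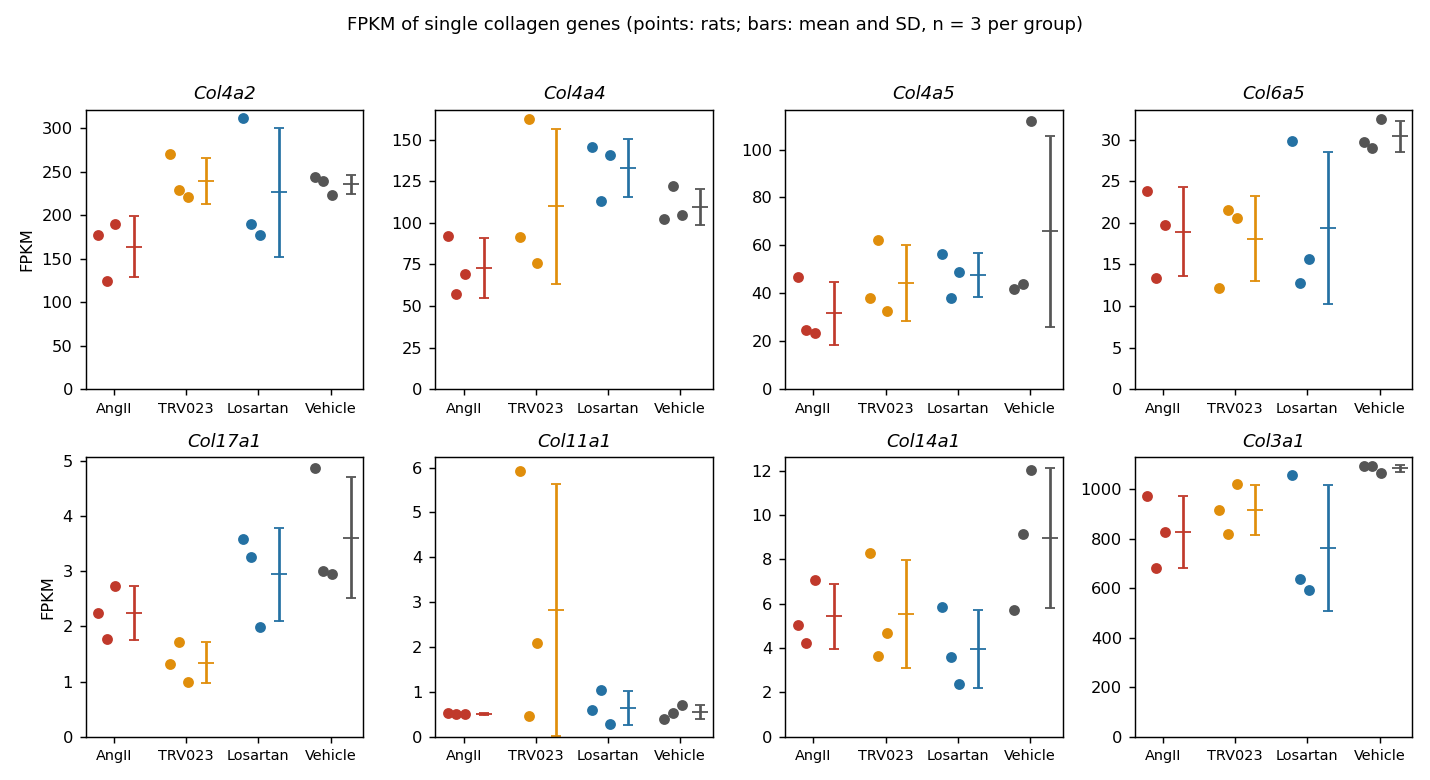
FPKM of 8 collagen genes, 1 point per rat, with the mean and SD of each group of 3 (bars). AngII values lay below vehicle for Col4a2, Col4a4, Col6a5, Col17a1 and Col3a1, TRV023 values lay below vehicle for Col6a5, Col17a1 and Col3a1, and Col11a1 reached 5.93 FPKM in Trv_917.

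With TRV023 the median fold change of collagen genes lay close to that of all genes, although their summed share of FPKM lay below vehicle in all 3 libraries. As a percent of read counts that share overlapped vehicle. The clearest single value was a lower Col17a1. This gene encodes a transmembrane collagen of hemidesmosomes, the junctions that hold basal epithelial cells to the basement membrane. Of 36 tested members 0 were called by edgeR, where 1 of 15193 genes was (0.00658%), and DESeq2 called 1 collagen, Col17a1, among 110 genes (0.672%). At an unadjusted edgeR p under 0.05, 1 collagen was higher and 3 were lower, where 2.61% of all tested genes were higher and 2.96% lower. The median log2 fold change was -0.04 against -0.002 over all genes, and 20 of 36 lay below 0 (55.6%, against 50.3%). In FPKM 4 collagens lay below vehicle without overlap and 0 above, against 5.23% and 4.99% of all tested genes.

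Col17a1 (chr1:274850656-274896696 in the deposited coordinates, minus strand) had 1.33, 1.72 and 0.990 FPKM in TRV023 lungs, against 4.87, 2.997 and 2.95 FPKM in vehicle lungs. These values rested on 116, 188 and 101 reads in TRV023 lungs and 528, 314 and 322 reads in vehicle lungs. All TRV023 libraries lay below all vehicle libraries, and all AngII libraries did so too at 2.24, 1.77 and 2.73 FPKM. The log2 fold change with TRV023 was -1.42 (95% interval -2.07 to -0.77, 0.373-fold), with an adjusted p of 0.384 in edgeR and of 0.00133 in DESeq2, so the call was made by DESeq2 alone. With each of the 6 libraries left out in turn, DESeq2 gave an adjusted p of 0.00109 to 0.0498. The 5 listed of 6 basal epithelial markers summed to only 3.91, 6.27 and 3.20 CPM in TRV023 lungs, against 8.22, 5.08 and 8.27 CPM in vehicle lungs, with 1 of the 5 at 0 in Trv_917 and Trv_918, and their part in the Col17a1 value was not tested. The promoter window of this gene is shown because it was the collagen with the smallest p-value against vehicle, with motifs in capitals as above.
Col17a1, GRCr8 chr1:256518808-256519107, minus strand: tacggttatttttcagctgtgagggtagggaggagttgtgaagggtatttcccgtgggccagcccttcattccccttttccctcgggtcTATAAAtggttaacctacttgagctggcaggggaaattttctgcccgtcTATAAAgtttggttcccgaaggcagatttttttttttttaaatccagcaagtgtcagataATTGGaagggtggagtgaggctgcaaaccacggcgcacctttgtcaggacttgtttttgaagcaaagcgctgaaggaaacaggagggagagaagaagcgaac
It held 2 TATA boxes and 1 CCAAT box, with no motif overlapping another.

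Col11a1, a minor fibrillar chain best known from cartilage, was the only collagen higher at an unadjusted p under 0.05 with TRV023. It had 5.93, 0.467 and 2.09 FPKM (652, 64 and 268 reads) in TRV023 lungs, against 0.397, 0.532 and 0.708 FPKM (54, 70 and 97 reads) in vehicle lungs. Trv_917 and Trv_930 were high and Trv_918 lay within the vehicle range, so the groups overlapped. The log2 fold change was 2.39 (SE 0.78, edgeR adjusted p = 0.722) and 1.23 without Trv_917. The 9 listed of 12 chondrocyte markers summed to 5.09, 6.22 and 7.19 CPM in TRV023 lungs, against 5.61, 9.44 and 42.4 CPM in vehicle lungs, with 1 to 4 of the 9 at 0 in each of these libraries, and their part in the Col11a1 value was not tested.

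Col6a5 had a log2 fold change of -0.76 with TRV023 (SE 0.20, adjusted p = 0.595), and of -0.55 without Trv_917. Col4a6 had a log2 fold change of -1.24 (SE 0.41, adjusted p = 0.731), and of -0.86 without Veh_963. The chains with the most mRNA differed little, with log2 fold changes of -0.16 for Col1a1 (SE 0.19), 0.13 for Col1a2 (SE 0.36), -0.08 for Col4a1 (SE 0.21) and 0.04 for Col6a1 (SE 0.15). Class medians lay at 0.10 for fibrillar, -0.05 for basement membrane, -0.07 for beaded filament, -0.03 for FACIT and 0.04 for network collagens. Without Trv_918 the basement membrane median was -0.39.

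With losartan, the most abundant fibrillar and type VI chains (Col3a1, Col1a1, Col1a2, Col6a1 and Col6a2) had values below vehicle in Los_964 and Los_965, with Los_925 within or just under the vehicle range or above it, and no collagen was called. Of 35 tested members 0 passed the adjusted p in edgeR, where 0 of 15156 genes did (0%), with 250 genes at an unadjusted p under 0.05 and 6 genes, none of them a collagen, called by DESeq2 (0.0327%). At an unadjusted p under 0.05, 1 collagen was higher and 3 were lower, where 0.686% of all tested genes were higher and 0.963% lower. The median log2 fold change of collagens was -0.22 against 0.006 over all genes, and 26 of 35 lay below 0 (74.3%, against 48.7%). With the 96x animal numbers as a covariate, 23 of 36 collagens lay below 0, where the median of all genes was 0.002. In that fit 3 collagens were lower at an unadjusted p under 0.05, where 2.29% of all tested genes were lower. In FPKM Col3a1, Col6a1, Col6a2 and Col8a2 lay below vehicle without overlap and 0 collagens above, against 3.62% and 1.96% of all tested genes.

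Col14a1 had a log2 fold change of -1.15 with losartan (SE 0.35), Col6a5 of -0.63 (SE 0.25) and Col8a2 of -1.13 (SE 0.48), all with an edgeR adjusted p of 0.9999. Without Veh_963, the library highest for all 3 genes, these were -0.88, -0.57 and -0.72. Col4a3 was the collagen that was higher, with a log2 fold change of 0.51 (SE 0.21) that became 0.30 without Los_925, and its pair Col4a4 had 0.33 (SE 0.15). All 8 alveolar type 1 markers were above 0 too, at a median of 0.34 with 0 at an unadjusted p under 0.05. They summed to 5787 to 6232 CPM in losartan lungs and 4760 to 5080 CPM in vehicle lungs. Endothelial (9 of 10, median 0.40) and alveolar type 2 markers (6 of 8, 0.24) also lay mostly above 0. Mesothelial (8 of 8) and smooth muscle and pericyte markers (9 of 11) lay mostly below 0, and macrophage markers were split evenly. The part of these markers in the Col4a3 and Col4a4 values was not tested. With TRV023 all 8 alveolar type 1 markers were above 0 as well, at a median of 0.29 with 2 at an unadjusted p under 0.05. There Col4a3 had a log2 fold change of 0.175 and Col4a4 of -0.006. With losartan, Col1a1 had -0.46 (SE 0.21) and Col3a1 -0.48 (SE 0.23). The class medians were -0.23 for fibrillar, -0.40 for beaded filament, -0.06 for FACIT and -0.02 for basement membrane collagens. Leaving out Los_925 gave 9 collagens lower at an unadjusted p under 0.05, where the share of all tested genes that were lower was also larger at 3.09%, with a fibrillar median of -0.57 and a beaded filament median of -0.67. The 11 listed fibroblast markers, none at 0, summed to 1569, 1733 and 1364 CPM in losartan lungs, against 1543, 1680 and 2654 CPM in vehicle lungs, with Los_964 and Los_965 on either side of Los_925. Of these markers, 9 of 11 had a log2 fold change below 0 with losartan, at a median of -0.22, and 1 was lower at an unadjusted p under 0.05. Their part in the collagen values was not tested.

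AngII, TRV023 and losartan bind the same receptor, as full agonist, biased agonist and blocker, and their lungs were compared with each other in 3 pairs in a fit of all 12 libraries. AngII and TRV023 are peptides and losartan is a small non-peptide molecule, and the doses of the 3 differ, so each pair compares single doses of these compounds. Of 36 tested collagens, 0 were called by edgeR in any pair, where 0 of 15662 genes were (0%).

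Col11a1 had 0.540, 0.5003 and 0.510 FPKM in AngII lungs, against 5.93, 0.467 and 2.09 FPKM in TRV023 lungs, a log2 fold change of -2.33 (SE 0.72, 95% interval -3.90 to -0.77, edgeR adjusted p = 0.2996). DESeq2 called this gene at an adjusted p of 0.0367, among 217 genes (1.36%), but gave adjusted p-values of 0.0678 to 0.516 without Ang2_931, Ang2_933, Trv_917 or Trv_930. Col8a1 had a log2 fold change of -1.10 in AngII against TRV023 lungs (SE 0.42, adjusted p = 0.370), and Col17a1 of 0.88 (SE 0.30, adjusted p = 0.321), both without overlap of the groups. In all, 2 collagens were lower and 1 higher at an unadjusted p under 0.05, where 5.43% of all tested genes were lower and 5.43% higher. In FPKM 7 collagens lay below and 1 above without overlap (14.6% and 4.34% of all tested genes), and 23 of 36 log2 fold changes lay below 0 (63.9%, against 51% of all genes). The median over collagens was -0.09, and -0.224 with library totals, where the median of all genes was at -0.148.

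In AngII against losartan lungs, the log2 fold change of Col4a4 was -0.78 (SE 0.23, edgeR adjusted p = 0.409) and that of Col4a3 -1.25 (SE 0.44, adjusted p = 0.460), with no overlap in either gene. Alveolar type 1 markers went the same way, with 8 of 8 below 0 at a median log2 fold change of -0.43, 4 of them at an unadjusted p under 0.05. Summed, these markers had 3767 to 4577 CPM in AngII lungs and 5787 to 6232 CPM in losartan lungs, none was at 0, and their part in the Col4a3 and Col4a4 values was not tested. Other marker lists with at least 8 tested genes also lay mostly below 0. These were ciliated (8 of 8, median -0.65), smooth muscle and pericyte (10 of 11, -0.34), endothelial (9 of 10, -0.30) and alveolar type 2 (7 of 8, -0.22). Mostly above 0 were fibroblast (7 of 11), mesothelial (6 of 8) and macrophage markers (6 of 8). Col8a1 had a log2 fold change of -0.997 (SE 0.42, adjusted p = 0.516). At an unadjusted p under 0.05 these 3 collagens were lower and none was higher, where 4.49% of all tested genes were lower and 4.69% higher. In FPKM Col4a3 and Col4a4 were the 2 collagens below without overlap and 0 lay above (8.43% and 3.68% of all tested genes), and DESeq2 called none of the collagens, with 103 genes called in all (0.66%). Below 0 were 17 of 36 collagens (47.2%, against 51.9% of all genes), among them all 6 type IV genes with a median of -0.48 but only 3 of 10 fibrillar genes, whose median was 0.20.

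Col17a1 had 1.33, 1.72 and 0.990 FPKM in TRV023 lungs, against 3.58, 3.27 and 1.98 FPKM in losartan lungs, a log2 fold change of -1.18 (SE 0.30, edgeR adjusted p = 0.920, DESeq2 adjusted p = 0.0823). The log2 fold change of Col11a1 was 2.09 (SE 0.71, adjusted p = 0.998). These were the 2 collagens with an unadjusted p under 0.05, where 2.29% of all tested genes were higher and 2.27% lower. In FPKM 2 collagens lay above and 1 below without overlap (4.99% and 2.71% of all tested genes), and DESeq2 called none of the collagens, with 16 genes called in all (0.109%). Below 0 were 11 of 36 collagens (30.6%, against 51.5% of all genes), with 1 of 10 fibrillar genes (median 0.27) and 5 of 6 type IV genes (median -0.24). For Col1a1, the 95% interval of the log2 fold change was -0.41 to 0.42 in AngII against TRV023 lungs, -0.10 to 0.73 in AngII against losartan lungs and -0.11 to 0.72 in TRV023 against losartan lungs. For Col3a1 the intervals were -0.45 to 0.42, -0.21 to 0.66 and -0.20 to 0.68 in the same order of pairs. Differences of up to these bounds are allowed by the data, so a p over the threshold does not show that the drugs act alike.

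Chains that share a molecule, and Col1a1 with Col3a1, whose molecules mix in the same fibrils, were then compared across the 12 libraries, in 9 pairs, by Pearson's r and Spearman's rho of log2 CPM with permutation tests adjusted over the 9 pairs. Col6a1 and Col6a2 varied together (r = 0.94, permutation p = 1e-05, the smallest that the permutations can give, adjusted p = 4.5e-05, and rho = 0.81, p = 0.0021, adjusted p = 0.0093). Without the 2 libraries farthest from the median r was 0.83 (permutation p = 0.0037), and in the 9 libraries of animals not numbered 96x, that is without Veh_963, Los_964 and Los_965, r was 0.88 (permutation p = 0.0026). Their FPKM ratio stayed within 1.62 to 1.90 in all libraries, a coefficient of variation of 5.25%. The level of that ratio, a median of 1.79, became 1.08 with the listed gene length of Col6a1, whereas its steadiness does not depend on the length. Col6a1 and Col6a3 of the same trimer gave r = 0.51 (permutation p = 0.086, adjusted p = 0.097) and rho = 0.42 (p = 0.18, adjusted p = 0.20), with r = 0.25 without the 2 farthest libraries (permutation p = 0.49).

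Col4a3 and Col4a4 were as close (r = 0.93, permutation p = 1e-05, adjusted p = 4.5e-05, and rho = 0.91, p = 0.00012, adjusted p = 0.0011), with r = 0.90 without the 2 farthest libraries (p = 0.00066) and r = 0.94 in animals not numbered 96x (p = 0.00019). The other head-to-head pair, Col4a1 and Col4a2, gave r = 0.60 (permutation p = 0.035, adjusted p = 0.052) and rho = 0.60 (p = 0.042, adjusted p = 0.076), with r = 0.77 without the 2 farthest libraries (permutation p = 0.0058) and r = 0.60 in animals not numbered 96x (permutation p = 0.081). Col4a5 and Col4a6 gave r = 0.75 (p = 0.0038, adjusted p = 0.0086) and rho = 0.74 (p = 0.0076, adjusted p = 0.022), with r = 0.63 without the 2 farthest libraries (permutation p = 0.055). Col1a1 and Col3a1 gave r = 0.85 (permutation p = 0.00098, adjusted p = 0.0029) and rho = 0.73 (p = 0.0099, adjusted p = 0.022). Their r was lower, and rested on fewer libraries, without Los_964 and Los_965 (0.59, permutation p = 0.077) and in animals not numbered 96x (0.56, permutation p = 0.12). The FPKM ratio of Col1a1 to Col3a1 ran from 0.392 to 0.547, a coefficient of variation of 10.5%. Col1a1 and Col1a2, the 2 chains of type I, gave r = 0.61 (permutation p = 0.034, adjusted p = 0.052) and rho = 0.44 (p = 0.16, adjusted p = 0.20), with r = 0.57 without the 2 farthest libraries (permutation p = 0.093) and an FPKM ratio between 2.70 and 5.87. The type V chains Col5a1 and Col5a2 gave r = 0.52 (permutation p = 0.084, adjusted p = 0.097) and rho = 0.57 (p = 0.055, adjusted p = 0.083), with r = 0.49 without the 2 farthest libraries (permutation p = 0.16). Col8a1 and Col8a2 showed no relation (r = 0.01, permutation p = 0.97, adjusted p = 0.97, and rho = 0.15, p = 0.65, adjusted p = 0.65), with ratios from 1.25 to 10.6. The permutations shuffled libraries without regard to their group. Differences between the 4 groups therefore enter r, rho and their p-values along with variation between rats of a group, and these were not separated. The points of a plot share the scaling factor of their library, and animals numbered 96x, with 3 libraries, were too few for a value of their own.

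**Figure D5:**
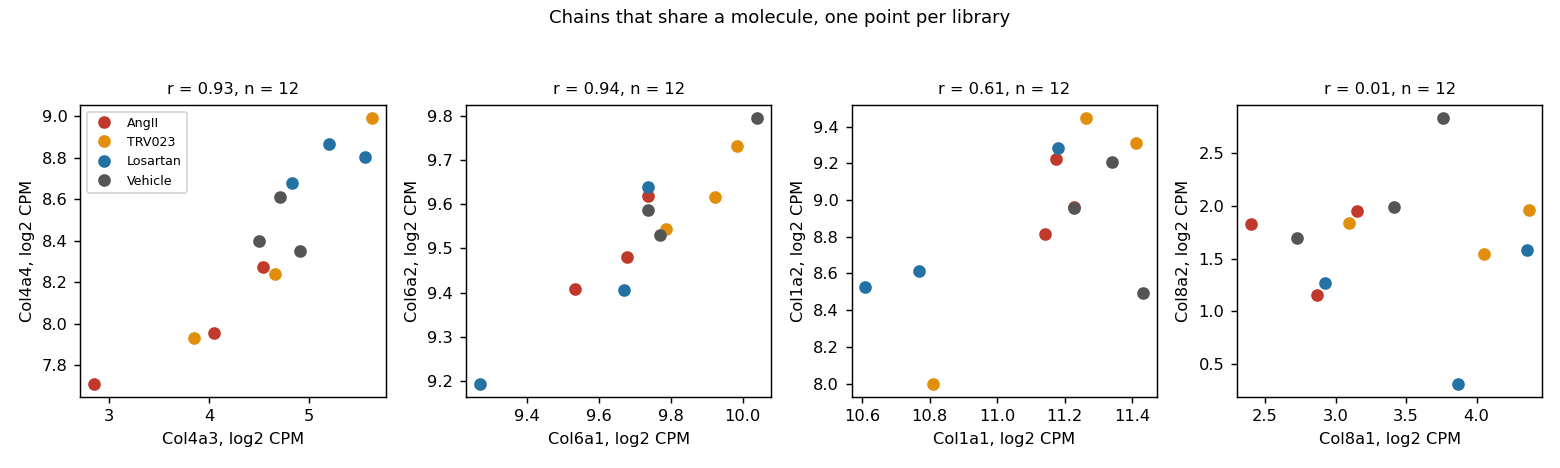
Log2 CPM of 4 pairs of collagen chains, 1 point per library, colored by group. Points of Col4a3 with Col4a4 (r = 0.93) and Col6a1 with Col6a2 (r = 0.94) lie close to a line, those of Col1a1 with Col1a2 (r = 0.61) scatter, and those of Col8a1 with Col8a2 (r = 0.01) show no order.

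Genes that fold, trim, cross-link and anchor collagen gave few calls of their own, with 0 past the edgeR adjusted p in any comparison with vehicle. The counts below are read against the shares of all tested genes that were lower at an unadjusted p under 0.05, 5.39% with AngII, 2.96% with TRV023 and 0.963% with losartan. Of 19 tested genes of folding and modification, 2 were lower with AngII at an unadjusted p under 0.05, Mia3, which loads procollagen into transport carriers (log2 fold change -0.46, SE 0.14), and P4ha1, a chain of prolyl 4-hydroxylase (-0.43, SE 0.18), with 0 with TRV023 or losartan. Of 13 tested genes of procollagen processing and crosslinking, 2 were lower with AngII, the cross-linking enzyme Lox (-0.78, SE 0.25) and PCOLCE2, an enhancer of procollagen trimming (-0.86, SE 0.30), with 0 with TRV023 or losartan. Of 15 tested partners of type IV collagen in the basement membrane, 3 were lower with AngII, the laminin chains Lama3 (-0.59, SE 0.19), Lamc1 (-0.38, SE 0.14) and Lama4 (-0.32, SE 0.13), while 1 was lower with TRV023, Nid2 (-0.48, SE 0.15), and 0 with losartan. For proteoglycans and partners that bind fibrils, 1 of 12 was lower with AngII (Thbs1, -0.78, SE 0.30), 1 of 14 with TRV023 (Aspn, -2.24, SE 0.81) and 0 of 13 with losartan. For collagen receptors, 0 of 11 were lower with AngII or TRV023 and 1 with losartan (Lair1, -1.74, SE 0.64), and no gene of the 5 lists was higher at that threshold in any of these comparisons.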

How the data were processed

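Lung RNA of 12 rats, 1 library each, was sequenced by a company for the authors. There is a deposited table for each drug with its 3 drug and 3 vehicle libraries, which holds the authors' whole read counts per gene and FPKM values, and the vehicle columns are identical in all 3 tables. The deposited FPKM divide the counts by gene length and counted reads. The aligner, counting tool, genome build, annotation and strand handling were not given in the sources used here, so reads of a gene and of an antisense partner cannot be told apart. A further 18 per-library columns of scaled values, the authors' fold changes and p-values, and 9 tables that are subsets of these were not used.

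Samples were grouped by their labels. Each drug was compared with vehicle on the deposited counts with edgeR 4.0.16 in R 4.3.3 (filterByExpr, TMM, glmQLFit, glmQLFTest), drugs with each other in a fit of all 12 libraries, with Benjamini-Hochberg adjustment over all genes tested and a threshold of 0.05. The F statistic gave the SEs, and 95 percent intervals used moderated degrees of freedom. Correlations used 100000 permutations, two-sided, of log2 CPM with a prior count of 2. The scripts were tested on simulated data. Alternatives were DESeq2 1.42.0, voom and limma 3.58.1 on log2(FPKM + 1) and log2(FPKM + 0.1) (mean FPKM of 1 or more), RLE factors, library totals, no filter, a minimum of 10 counts per library, a single fit of all 4 groups, an adjusted p of 0.1, removal of the gene length trend (lowess, span 0.3), the 96x animal numbers as a covariate, and each library left out. The collagen share was also taken as a percent of read counts and of FPKM without mitochondrial genes. Chosen after seeing the data were the listed gene length for FPKM, the counts of collagens at an unadjusted p under 0.05 under each alternative, and DESeq2 with libraries left out. Tables were read with data.table, version 1.17.8, and figures drawn with matplotlib 3.10.9 in Python 3.11.15.

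The collagen genes, their classes and the lists of partners and cell type markers were chosen with earlier results of these data known. Values per library are given for the 3 highest members of 5 classes and for up to 8 members per comparison with the smallest unadjusted p under 0.05, and up to 4 members of a list are named. Promoters are from RefSeq, build GRCr8, matched by symbol. Col9a1, Col21a1 and Col26a1 were not analysed here.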

Additional observations from a re-analysis of the deposited data

How the results depend on the processing

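Of the values of single collagen genes under the alternatives, 1168 of 1220 kept the sign given in the report and 2 passed an adjusted p of 0.05. The other 52 had the opposite sign, all for genes not called, such as Col15a1 with losartan (0.05, with -0.67 to 0.44 over the alternatives). Of 260 class medians, which have no test, 23 had the opposite sign, among them the network median with losartan (-0.33, with -0.66 to 0.47) and the fibrillar median with AngII (-0.16, up to 0.05). Counts of genes called depended on the tool. For AngII against vehicle, 2 genes were called by edgeR, 204 by DESeq2, 1 each by voom, by limma on log2(FPKM + 1) or log2(FPKM + 0.1), with library totals, with all 4 groups in 1 fit and with the length trend removed, and 0 to 3 with a library left out. For TRV023 against vehicle, 1 gene was called by edgeR, 110 by DESeq2 (with 1 collagen, Col17a1), 0 by voom or with all 4 groups in 1 fit, 2 by limma on log2(FPKM + 0.1), and 0 to 3 with a library left out. For losartan against vehicle edgeR called 0, DESeq2 6, and 0 to 1 were called with a library left out. Between drugs edgeR called 0. For AngII against TRV023 DESeq2 called 217 (with 1 collagen, Col11a1) and a fit of only those 6 libraries 1, and the collagen median was -0.224 with library totals against -0.087. For AngII against losartan DESeq2 called 103, and 0 to 1 were called with a library left out. For TRV023 against losartan DESeq2 called 16 and library totals gave 1. The cause of these differences was not tested.

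As a percent of read counts rather than FPKM, the collagen share differed from vehicle by -0.385 percentage points with AngII, -0.136 with TRV023 and -0.321 with losartan, on a vehicle share of 1.78% of counts against 0.556% of FPKM. With mitochondrial genes left out of the FPKM, the share was 0.479% in AngII, 0.555% in TRV023, 0.505% in losartan and 0.618% in vehicle lungs. AngII libraries then reached at most 0.532%, and vehicle libraries were at least at 0.604%. Collagen medians with a library left out ran over -0.307 to -0.175 for AngII, -0.079 to 0.017 for TRV023 and -0.342 to -0.092 for losartan against vehicle. No paired analysis was possible because each animal number belongs to a single rat and the groups share none.

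Precision is limited by 3 rats per group and by the spread between them, so an adjusted p over the threshold does not show that a collagen gene was unchanged. Genes under 1 FPKM rest on few reads. FPKM levels of Col4a4, Col4a5 and 8 further members with another gene length depend on the gene model.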
